A study of Mus musculus with 12 samples.

Results

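The comparison described here sets wild-type (WT) mouse macrophages treated with LPS and IFNγ directly against WT macrophages treated with IL-4. It uses 4 of the 12 libraries of the series, chosen by their sample titles: 2 libraries of LPS+IFNγ and 2 of IL-4. Another 2 WT control libraries serve as the reference that shows which of the states moved. Marrow cells became macrophages over 6 days in M-CSF, the macrophage colony-stimulating factor, given at 10 ng/mL. The cells then stayed as control, or received 100 ng/mL LPS with 10 ng/mL IFNγ for 24 h (M1 in the labels) or 20 ng/mL IL-4 for 24 h (M2 in the labels). The other 6 libraries of the series come from mice in which Ptprz1, a receptor-type tyrosine phosphatase gene, was targeted (KO), under the same 3 conditions. WT titles begin with B6, but the strain label is B6.129-Ptprz1tm1Nmo for all samples, WT included. Nothing in the labels tells separate animals or cultures from repeats of the same cells, so p-values here measure only the variation among these libraries, which may be technical. WT libraries carried Xist and KO libraries Y-linked transcripts, so genotype and sex cannot be told apart.

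LPS, a bacterial cell wall component, signals through TLR4 to NF-κB and to type I interferon. IFNγ signals through JAK1 and JAK2 and acts at GAS elements (gamma-activated sites), while type I interferon acts at ISRE elements. IL-4 signals through IL4RA to STAT6, which binds a palindrome like GAS with a wider gap. The classic readout of the 2 states is the use of arginine: NOS2 turns it into nitric oxide, and ARG1 turns it into ornithine and urea.

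The sequences upstream of a few genes on which the comparison turns are shown because they hold the kinds of element named above. They are the 250 bases before the RefSeq start site (GRCm38.p6), 5′ to 3′ on the gene's strand, with the matching letters in capitals. For IFNγ and LPS these are Irf1, an IFNγ-induced transcription factor (GAS, TTCNNNGAA, chr11:53769764-53770013, + strand), Gbp2, an IFNγ-induced GTPase (ISRE core, chr3:142620413-142620662, + strand), Cxcl10, a chemokine for T cells (ISRE core, chr5:92348890-92349139, - strand), and Rsad2, the antiviral enzyme viperin (ISRE core, chr12:26456453-26456702, - strand). For IL-4 these are Retnla, the secreted resistin-like molecule (STAT6-type, chr16:48842359-48842608, + strand), and Pdcd1lg2, the checkpoint ligand PD-L2 (STAT6-type, chr19:29410669-29410918, + strand).
Irf1: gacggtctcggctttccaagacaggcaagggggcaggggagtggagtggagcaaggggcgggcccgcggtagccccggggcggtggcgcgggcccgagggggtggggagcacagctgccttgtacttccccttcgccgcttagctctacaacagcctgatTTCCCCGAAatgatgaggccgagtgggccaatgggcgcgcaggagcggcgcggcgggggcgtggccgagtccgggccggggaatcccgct
Gbp2: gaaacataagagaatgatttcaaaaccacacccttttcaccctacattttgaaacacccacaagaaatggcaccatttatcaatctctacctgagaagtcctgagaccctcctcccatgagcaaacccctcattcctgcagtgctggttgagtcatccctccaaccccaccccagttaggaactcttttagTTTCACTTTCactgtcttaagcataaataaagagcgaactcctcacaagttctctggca
Cxcl10: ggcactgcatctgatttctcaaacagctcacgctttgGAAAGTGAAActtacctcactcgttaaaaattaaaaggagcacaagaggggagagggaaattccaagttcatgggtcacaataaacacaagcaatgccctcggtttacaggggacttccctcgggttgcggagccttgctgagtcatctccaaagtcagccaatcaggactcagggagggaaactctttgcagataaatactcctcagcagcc
Rsad2: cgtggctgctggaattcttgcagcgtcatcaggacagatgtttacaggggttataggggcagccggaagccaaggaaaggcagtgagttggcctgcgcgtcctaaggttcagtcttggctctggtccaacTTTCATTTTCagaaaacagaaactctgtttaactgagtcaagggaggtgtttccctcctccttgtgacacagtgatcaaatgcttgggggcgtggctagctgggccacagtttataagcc
Retnla: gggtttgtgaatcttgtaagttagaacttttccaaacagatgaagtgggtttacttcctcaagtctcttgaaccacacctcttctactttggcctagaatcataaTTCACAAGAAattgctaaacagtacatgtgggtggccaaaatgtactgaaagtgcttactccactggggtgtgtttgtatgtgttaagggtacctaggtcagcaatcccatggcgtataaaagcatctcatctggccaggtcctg
Pdcd1lg2: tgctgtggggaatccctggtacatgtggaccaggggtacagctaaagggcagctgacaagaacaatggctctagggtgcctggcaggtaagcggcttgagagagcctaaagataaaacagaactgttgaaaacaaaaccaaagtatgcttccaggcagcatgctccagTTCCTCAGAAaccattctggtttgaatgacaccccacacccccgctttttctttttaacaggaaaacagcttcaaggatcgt

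The motifs searched were GAS (TTCNNNGAA), the STAT6-type palindrome (TTC and GAA parted by 4 bases), the ISRE core (GAAA, any 2 bases, GAAA) and the kappa B site GGGAC followed by TTTCC, on both strands of windows of 300 bases that end 50 bases past the start. The GAS and STAT6-type letters differ by their spacing, and a window can hold more than 1 kind. Among the 9874 tested genes with a RefSeq window, 4.09% held the ISRE core, 8.29% GAS, 6.74% the STAT6-type palindrome and 0.203% the kappa B letters. Of the 11 Gbp and Irg GTPase genes with a window, 10 (90.9%) held the ISRE core, 6 held GAS and 1 held the STAT6-type palindrome. Of 29 antiviral interferon-stimulated genes with a window, 17 (58.6%) held the ISRE core, 7 (24.1%) held GAS and 5 (17.2%) held the STAT6-type palindrome. Of 19 genes of the M2 marker panel with a window, 0 held the ISRE core and 6 (31.6%) held the STAT6-type palindrome: Retnla, Ccl17, Cd209e, Il1rn, Pdcd1lg2 and Itgax. Of the genes with that palindrome, Il1rn was higher in LPS+IFNγ and Ccl17 was too low to test, as given further on. GAS was in 3 of the 19. Of the mitosis genes discussed further on, 24 had a window, of which 1 held the ISRE core, 1 the STAT6-type palindrome and 0 GAS. Of the 12 genes with the widest differences on either side, named further on, 3 of the 7 LPS+IFNγ genes with a window held the ISRE core, and 1 of the 10 IL-4 genes held the STAT6-type palindrome. GAS was in 0 of those 7 and 2 of those 10, and the STAT6-type palindrome in 0 of the 7. Across the 1076 genes with a window that were past a fold of 2 toward LPS+IFNγ, 11.6% held the ISRE core, against 3.71% of 1159 toward IL-4. The STAT6-type palindrome stood at 7.53% and 7.77% in those groups, and GAS at 10.2% and 8.63%. The 6 windows shown were chosen because they hold the letters. Of the other genes looked up, the GAS letters were not in the bases before the start of Cxcl9, Socs1, Cish or Ccnb2, nor before another annotated start of Irf1, and the STAT6-type letters were not before Mgl2, Chil3, Egr2, Mrc1, Il4ra or Cd300lf. The STAT6-type letters were also before the start of Clec7a, and Socs1 held 2 ISRE cores there. Nos2, Arg1, Socs2, Ccl24, Clec10a and Fn1 were looked up too but had no window. No match says only that these letters are not in this window. These matches are descriptions of letters in a window, given without a test.

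Total counts of the 6 WT libraries ran from 16239656 to 18328711. A level is given as CPM, counts scaled to the library's size and corrected for composition (TMM), and 3 counts, the limit set for a gene with no counts, equal 0.146 to 0.204 CPM. The TMM factors were 0.806 and 0.833 in LPS+IFNγ and up to 1.16 in the other WT libraries. Markers of macrophages summed to 19500 and 18400 CPM in LPS+IFNγ, 8760 and 9010 in IL-4 and 15600 in both control libraries. All 10 were tested and 0 were without counts. Of the other cell types, T and NK cell markers summed to at most 0.954 CPM in a WT library, with 4 of 8 at 0, and mast cell and basophil markers to at most 0.295 CPM, with 4 of 7 at 0. B cell markers stayed at or below 6.35 CPM, dendritic cell markers at or below 5.04 CPM, and granulocyte markers at or below 25.6 CPM, reached in LPS+IFNγ. Erythroid and megakaryocyte markers summed to 32.6 to 76.9 CPM. Stromal markers summed to 79.0 and 209 CPM in LPS+IFNγ, 62.6 and 211 in IL-4 and 68.2 and 351 in control, so they were higher in library 2 of every group. Whether these cells bear on the differences was not tested. In bulk RNA, fewer cells of a type and less RNA per cell cannot be told apart.

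The WT states differed across most of the transcriptome. Of 13525 genes tested, 7600 were called (56.2% of all tested), 3794 higher in LPS+IFNγ (28.1%) and 3806 higher in IL-4 (28.1%), at an adjusted p below 0.05 in edgeR's quasi-likelihood test. With a stricter test of whether the difference exceeds a fold of 2, 1482 genes (11%) were higher in LPS+IFNγ and 1564 (11.6%) higher in IL-4. Scaled by library totals alone, without TMM, the calls were 2288 higher in LPS+IFNγ and 5848 higher in IL-4, since the median of all genes moves by -0.43 on the log2 scale. Changes are therefore relative to the TMM scale, on which the median of all genes was -0.03. The very wide differences lay more often on the LPS+IFNγ side: by the fitted fold, 366 called genes were at least 32 times higher there, and 227 at least 32 times higher in IL-4. Both LPS+IFNγ libraries lay above both IL-4 libraries in 5484 genes and below them in 5625.

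**Figure D1:**
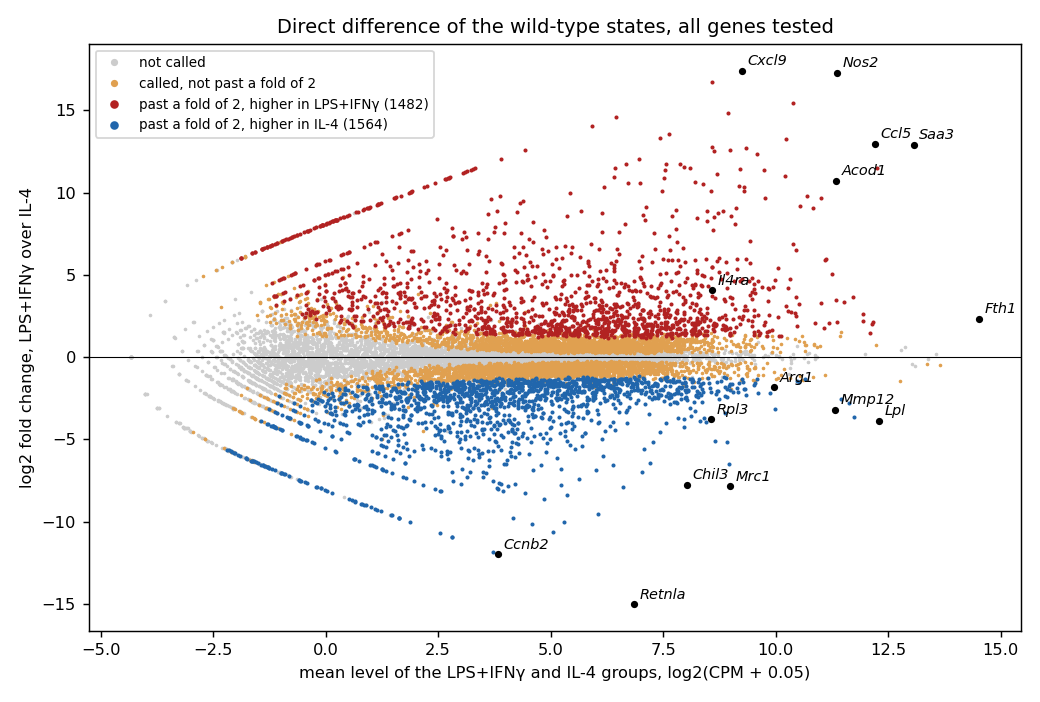
Log2 fold change of LPS+IFNγ over IL-4 in WT (vertical axis) against the mean level of both groups, as log2(CPM + 0.05) (horizontal axis), 1 point per gene tested, 13525 in all. Red points are the 1482 genes past a fold of 2 toward LPS+IFNγ and blue points the 1564 toward IL-4. The straight slanted lines of points are genes with few or no counts in 1 state, whose fitted fold depends on the model's small added count.

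Against the control libraries, LPS+IFNγ moved far more genes than IL-4 did. LPS+IFNγ changed 7348 genes (54.3%), 3700 upward (27.4%) and 3648 downward (27%). IL-4 changed 1222 genes (9.04%), 665 upward (4.92%) and 557 downward (4.12%). This IL-4 count rests on all 4 libraries: it was 235 without IL-4 library 1, 281 without IL-4 library 2, 175 without control library 1 and 245 without control library 2. Measured as the root mean square of log2 CPM differences over genes, LPS+IFNγ libraries stood 1.85 to 1.93 from IL-4 libraries and 1.82 to 1.89 from control libraries. IL-4 libraries stood 0.755 to 0.864 from control, where libraries of 1 group stood 0.565 to 0.606 apart. The first principal component of the 6 WT libraries held 80.9% of the variance and the second 9.47%. The comparisons with control share the same 2 control libraries, so their values are set side by side and not related to each other.

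Of the genes widest apart toward LPS+IFNγ, several had no counts at all in IL-4. Cxcl9 (chromosome 5, 92321347 to 92328079, GRCm38), an IFNγ-induced T cell chemokine, stood at 1330 and 1100 CPM in LPS+IFNγ and at 0 in both IL-4 and both control libraries. It was at least 7252-fold higher in LPS+IFNγ, setting IL-4 at 3 counts per library. Nos2 (chromosome 11, 78920787 to 78960254), the inducible nitric oxide synthase, stood at 5710 and 4790 CPM in LPS+IFNγ against 0 and 0.0491 in IL-4. That is 1 count in the IL-4 group, a ratio of 201000 with a 95% counting interval of 36100 to 7940000. Cxcl10 stood at 2760 and 2600 CPM in LPS+IFNγ against 0 and 0.0982 in IL-4. Cxcl11, annotated as a polymorphic pseudogene, stood at 182 and 166 CPM against 0 in both IL-4 libraries, at least 1037-fold higher. Gbp4, a guanylate-binding GTPase, stood at 785 and 754 CPM against 0, at least 4597-fold higher. Il12b, the shared subunit of IL-12 and IL-23, stood at 124 and 117 CPM against 0, at least 717-fold higher. The rest of these 12 genes were Saa3, Ccl5, Cfb, Ifit1bl1, Slfn4 and Clic5. Saa3, an acute phase protein, reached 17900 and 16300 CPM against 1.79 and 2.6 in IL-4. In all 12 genes, control lay at or below 5.2 CPM.

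The 12 genes widest apart toward IL-4 were of 2 kinds, parted by their control level. Retnla (chromosome 16, 48842551 to 48844461) stood at 219 and 243 CPM in IL-4 and at 0 in both LPS+IFNγ and both control libraries, at least 1129-fold higher in IL-4 than in LPS+IFNγ. Il31ra, a subunit of the IL-31 receptor, stood at 12.3 and 15.4 CPM in IL-4 and at 0 in the other 4, at least 67-fold higher. Mgl2, a galactose-binding lectin, stood at 118 and 147 CPM in IL-4, 0.136 and 0.203 in LPS+IFNγ and 0.243 and 0.296 in control. These 3 genes were called higher in IL-4 than in control. The other 9 were Ccnb2, Spag5, Esco2, E2f7, Pclaf, Slco2b1, Ccna2, Cenpf and Anln, of which all but Slco2b1 (an organic anion transporter) act in the cell cycle. Each of the 9 had its highest mean in control. Ccnb2, a mitotic cyclin, stood at 65.8 and 61.5 CPM in control, 27.8 and 28.5 in IL-4 and 0 in LPS+IFNγ, so that IL-4 was at least 137-fold above LPS+IFNγ. In none of the 9 did the IL-4 mean exceed the control mean.

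The arginine enzymes did not part the states evenly. Arg1 (chromosome 10, 24915221 to 24927484), taken as an IL-4 marker, stood at 1500 and 1610 CPM in IL-4, 498 and 383 in LPS+IFNγ and 0.0486 and 0.493 in control. It was called higher than control in both states, by 12.46 on the log2 scale in IL-4 (adjusted p = 0.00021) and by 10.64 in LPS+IFNγ (adjusted p = 8.6e-06). The direct difference was -1.82 ± 0.53 on the log2 scale (SE, n = 2 libraries a group, adjusted p = 0.015), and it did not pass the test against a fold of 2. The call was lost without LPS+IFNγ library 1 (adjusted p = 0.0556), without LPS+IFNγ library 2 (0.0987) or without IL-4 library 2 (0.052). Of 20 tested arginine and polyamine genes, 6 were higher in LPS+IFNγ and 9 in IL-4, beside 28.1% of all genes tested in either direction, with a median log2 fold change of -0.46. Without LPS+IFNγ library 1, 5 were higher in IL-4. Arg2, the mitochondrial arginase, stood at 13.3 and 14.3 CPM in LPS+IFNγ and at 0 and 0.0982 in IL-4. Ass1, which remakes arginine from citrulline, was higher in LPS+IFNγ (261 and 232 CPM against 7.37 and 11.2). Srm, spermidine synthase, was higher in IL-4 (28.7 and 23.4 CPM against 3.61 and 4), as was Slc7a1, an arginine transporter (58.6 and 54.7 CPM against 15.5 and 17.5).

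**Figure D2:**
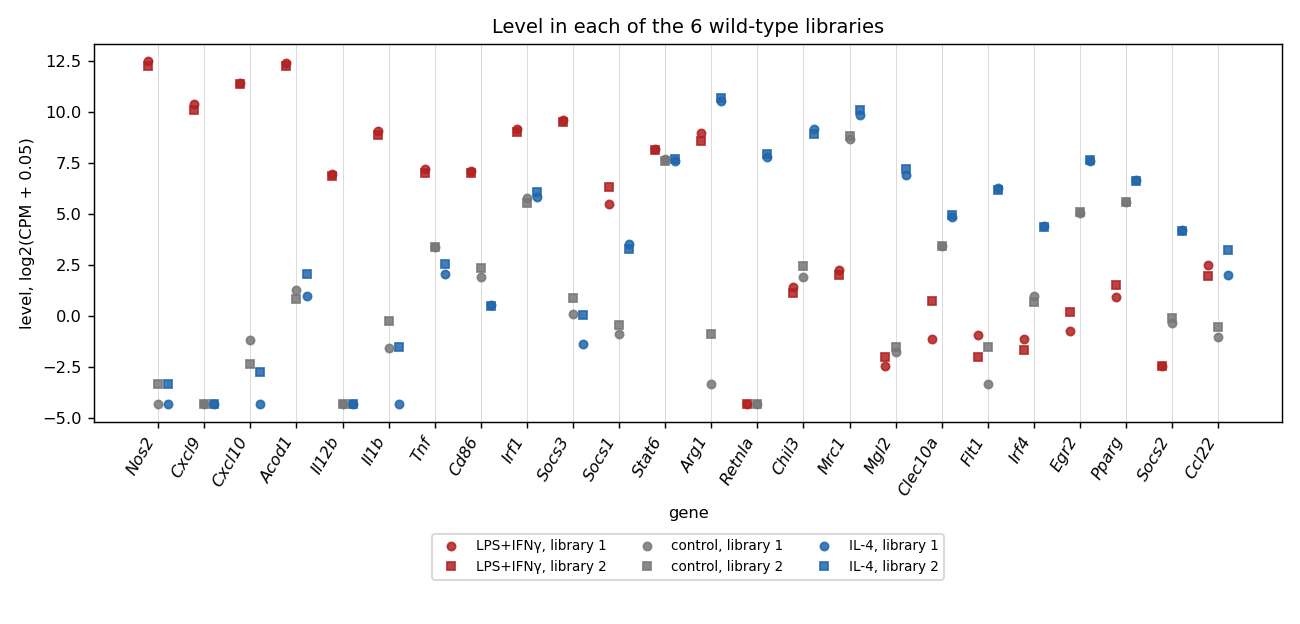
Level of 24 marker and signalling genes in each WT library, as log2(CPM + 0.05) (vertical axis), with LPS+IFNγ in red, control in grey and IL-4 in blue, circles for library 1 and squares for library 2. Nos2, Cxcl9 and Il12b are high in the red points alone, Retnla in the blue alone, and Arg1 lies far above control in both states.

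All 22 tested genes of the M1 marker panel were higher in LPS+IFNγ, beside 28.1% of all genes tested. Their median log2 fold change was 7.8, or 7.12 with the 3 genes that had no counts in IL-4 set at their lower bound. All 22 were also called above control in LPS+IFNγ, and 1 of 22, Cd274, was called above control in IL-4. Tnf, the inflammatory cytokine, stood at 147 and 129 CPM in LPS+IFNγ, 4.18 and 5.79 in IL-4 and 10.5 and 10.4 in control. Acod1, which makes itaconate, stood at 5450 and 4900 CPM in LPS+IFNγ against 1.9 and 4.17 in IL-4. Cd86, a costimulatory ligand, stood at 138 and 129 CPM against 1.39 and 1.37 in IL-4. Il6 stood at only 16.4 and 25.2 CPM in LPS+IFNγ, above 0.112 and 0.0982 in IL-4.

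The M2 marker panel was less uniform. Of 26 tested genes of 30 listed, 19 were higher in IL-4, 3 higher in LPS+IFNγ and 4 not called, beside 28.1% of all genes tested in either direction. The median was -4.88, or -4.41 with the 2 genes without counts in LPS+IFNγ at their bound. Against control, IL-4 raised 17 of the 26, beside 4.92% of all genes tested. LPS+IFNγ raised 7 and lowered 11, beside 27.4% and 27% of all genes tested, so the share raised was near that of all genes. Chil3, the chitinase-like protein Ym1, stood at 564 and 482 CPM in IL-4, 2.66 and 2.17 in LPS+IFNγ and 3.74 and 5.47 in control. Mrc1, the mannose receptor, stood at 914 and 1100 CPM in IL-4, 407 and 456 in control and 4.7 and 4 in LPS+IFNγ. Its direct difference of -7.86 ± 0.44 (SE, adjusted p = 9.6e-07) thus held a small gain in IL-4 (1.23 over control, adjusted p = 0.046) and a fall by 6.63 in LPS+IFNγ. Flt1, a VEGF receptor, stood at 77.2 and 72.9 CPM in IL-4, 0.477 and 0.203 in LPS+IFNγ and 0.0486 and 0.296 in control. Cd163, the haptoglobin-hemoglobin scavenger receptor, stood at 2.01 and 2.7 CPM in IL-4 and 2.77 and 2.81 in control, and at 0.0681 and 0.0678 in LPS+IFNγ.

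Of the M2 panel, 3 genes went the other way. Il1rn, the IL-1 receptor antagonist, stood at 2850 and 2490 CPM in LPS+IFNγ, 20.1 and 24.7 in IL-4 and 24.8 and 26.3 in control. Tgm2, a transglutaminase, stood at 975 and 793 CPM in LPS+IFNγ, 168 and 190 in IL-4 and 55.6 and 62.7 in control, and was called above control in both states. Msr1, a scavenger receptor, stood at 1130 and 1080 CPM in LPS+IFNγ and 214 and 238 in IL-4. Ccl22 and Ccl24, chemokines often used as IL-4 markers, were not called. Ccl22 stood at 5.52 and 3.86 CPM in LPS+IFNγ and 4.02 and 9.43 in IL-4, with a difference of -0.52 ± 1.2 (SE). Ccl24 stood at 0.749 and 1.69 CPM against 0.223 and 0.344, and was called higher in LPS+IFNγ when only these 4 libraries were fitted (adjusted p = 0.0298). Ccl17 was too low to test, at 0.279 and 0.54 CPM in IL-4 and 0 in LPS+IFNγ.

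The receptors and signal transducers of the 2 pathways were expressed in a crossed pattern. Il4ra, the receptor chain for IL-4, stood at 739 and 704 CPM in LPS+IFNγ, 84.1 and 74.8 in control and 41.4 and 44.8 in IL-4. It was called above control in LPS+IFNγ (3.18 on the log2 scale) and below control in IL-4 (-0.88). Il13ra1, its partner chain, followed with 109 and 96.2 CPM in LPS+IFNγ against 6.86 and 6.43 in IL-4. Ifngr1, the IFNγ receptor chain, was lower in LPS+IFNγ, with 100 and 84.4 CPM against 153 and 161. Stat2, a transducer of type I interferon, stood at 1180 and 1090 CPM in LPS+IFNγ against 40.3 and 53.6 in IL-4. Stat6 differed little: 291 and 276 CPM against 196 and 209, a difference of 0.48 ± 0.1 that was lost when libraries were scaled by totals alone (0.05, adjusted p = 0.722). Of 33 tested JAK-STAT genes, 24 were higher in LPS+IFNγ and 5 in IL-4.

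The SOCS feedback inhibitors split by stimulus. Socs3, induced by STAT3 cytokines and TLR ligands, stood at 772 and 728 CPM in LPS+IFNγ against 0.335 and 0.982 in IL-4. Socs2 stood at 18.5 and 17.8 CPM in IL-4, 0.729 and 0.887 in control and 0.136 in both LPS+IFNγ libraries. Cish stood at 20.2 CPM in both IL-4 libraries, 3.54 and 2.51 in LPS+IFNγ and 0.34 and 0.394 in control, so it was called above control in both states. Socs1, which blocks JAK activity, was called above control in both states as well: 45.2 and 79.5 CPM in LPS+IFNγ, 11.3 and 9.72 in IL-4 and 0.486 and 0.69 in control. Its LPS+IFNγ libraries were the widest apart of this group, yet neither reached down to IL-4.

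Transcription factors named for their part in polarisation numbered 20 of 38 higher in LPS+IFNγ and 10 higher in IL-4, beside 28.1% of all genes tested in either direction, so the share toward IL-4 was near that of all genes. Irf7, the interferon amplifier, stood at 3150 and 2780 CPM in LPS+IFNγ against 2.68 and 7.22 in IL-4. Irf1 stood at 565 and 519 against 56.7 and 66.6, with 54.3 and 47.1 in control. Egr2, an early IL-4 target, stood at 190 and 198 CPM in IL-4, 32.7 and 34.3 in control and 0.545 and 1.08 in LPS+IFNγ. Irf4 stood at 21.3 and 20.5 CPM in IL-4, 1.9 and 1.58 in control and 0.409 and 0.271 in LPS+IFNγ. Pparg, the lipid-sensing nuclear receptor, stood at 102 and 99.3 CPM in IL-4, 48.6 and 48.3 in control and 1.84 and 2.85 in LPS+IFNγ. Egr2, Irf4 and Pparg were each called above control in IL-4 and below it in LPS+IFNγ. Maf went the opposite way, with 501 and 519 CPM in LPS+IFNγ, 234 and 265 in control and 55.5 and 49.9 in IL-4.

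Other genes that parted from control in opposite directions were Siglece, Ms4a6b, Adgb, Trim30b, Klra2 and Ksr2, beside Egr2 and Socs2. Siglece, an inhibitory sialic acid receptor, stood at 90.5 and 72.2 CPM in LPS+IFNγ, 5.78 and 3.15 in control and 0.0558 and 0.344 in IL-4. Ms4a6b, a membrane protein of the MS4A family, stood at 1120 and 1050 CPM in LPS+IFNγ, 38.6 and 39.3 in control and 3.35 and 4.57 in IL-4. Ksr2, a scaffold of the RAF-MEK pathway, went the other way, with 29.9 and 31.9 CPM in IL-4, 3.06 and 2.17 in control and 0.272 and 0.407 in LPS+IFNγ. That control lay between the states in these genes follows from how they were chosen.

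A further 226 genes, counted with the same limit on symbols, were called against control in the same direction in both states. In these the 95% interval of the direct difference lay within a fold of 2 either way. The genes named here are among the 8 ranked first by the smaller of their 2 changes from control. Nfil3, a bZIP transcription factor, stood at 55.4 and 54.4 CPM in LPS+IFNγ, 45.5 and 46.7 in IL-4 and 7.78 and 8.62 in control. Klf4, named in the M2 panel, stood at 25.7 and 23.4 CPM in LPS+IFNγ, 33 and 30.3 in IL-4 and 7.34 and 6.8 in control, with a direct difference of -0.36 ± 0.27 (SE, adjusted p = 0.27). Flrt2, a cell adhesion protein, rose in both, to 200 and 181 CPM in LPS+IFNγ and 275 and 271 in IL-4 from 36.3 and 34.9. Plk3, a stress kinase, was also called above control in both. Pram1, Klhl6 and Col18a1 were called below control in both. Klhl6 stood at 13.1 and 13.8 CPM in LPS+IFNγ, 14.8 and 13.6 in IL-4 and 55.1 and 50.2 in control. The direct differences of Nfil3 (0.23, adjusted p = 0.0326), Flrt2 (-0.54, 0.00106) and Klf4 (-0.39, 0.0152) were called when only the 4 libraries of the comparison were fitted, and Flrt2 also by DESeq2 (-0.51, 0.0432). An interval within a fold of 2 does not show that the states act alike on these genes.

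Interferon-stimulated genes stood apart as whole families. All 19 Gbp and Irg GTPases, which attack the vacuoles of intracellular pathogens, were higher in LPS+IFNγ, with a median log2 fold change of 8.98, or 7.75 with the 4 genes without counts in IL-4 at their bound. All 37 tested antiviral genes were higher in LPS+IFNγ, each past a fold of 2, with a median of 5.87. In IL-4, edgeR called 0 members of either list against control. At an unadjusted p below 0.05, 1 GTPase gene was above control and 3 below, and 2 antiviral genes were below. DESeq2 called 2 GTPase genes below control and 0 antiviral genes. Gbp2 stood at 3800 and 3450 CPM in LPS+IFNγ, 5.13 and 8.54 in IL-4 and 5.3 and 6.06 in control. Rsad2 reached 10000 and 9460 CPM against 3.18 and 3.58 in IL-4. Zbp1, a sensor of Z-form nucleic acid, stood at 405 and 382 CPM against 2.18 and 2.6. Near-identical copies in these families (Gbp, Tgtp, Ifit, Slfn and the H2-Q genes below) can share reads, so the split between copies is uncertain.

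Antigen presentation differed by class. Of 22 MHC class I and immunoproteasome genes, 20 were higher in LPS+IFNγ, with a median of 3.09. Tap1, which carries peptides into the endoplasmic reticulum, stood at 993 and 899 CPM in LPS+IFNγ against 26.4 and 28.8 in IL-4. H2-Q7 stood at 721 and 702 CPM against 1.51 and 1.57. The 2 exceptions were the chaperones Calr (707 and 677 CPM in LPS+IFNγ against 1290 and 1310 in IL-4) and Pdia3 (500 and 491 against 664 and 648, with adjusted p = 0.0543 without LPS+IFNγ library 2 and 0.05 without IL-4 library 1). Of 12 tested MHC class II genes, 1 was higher in LPS+IFNγ (H2-Oa), 2 in IL-4 (Ciita and Ifi30) and 9 not called, at a median of 0.04 that becomes -0.39 when libraries are scaled by totals alone. Ifi30, a lysosomal thiol reductase, differed by -0.6 (adjusted p = 0.0238), and its call was lost without either LPS+IFNγ library (adjusted p = 0.0811 and 0.11) or either IL-4 library (0.111 and 0.0523). Ciita, the class II transactivator, was lower in LPS+IFNγ, with 0.817 and 0.203 CPM against 10.9 and 10 in IL-4, 8.31 and 5.42 in control. The Ciita difference of -4.34 was no longer called without LPS+IFNγ library 1 (-5.64, adjusted p = 0.0527) or library 2 (-3.67, 0.108).

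Cytokines, chemokines and their sensors leaned to LPS+IFNγ. Of 24 tested inflammatory cytokines, 21 were higher there, with a median of 5.69, or 5.04 with the 3 genes without counts in IL-4 at their bound, and 1, Tgfb1, was higher in IL-4 (233 and 231 CPM against 145 and 132). Il1b stood at 527 and 464 CPM in LPS+IFNγ against 0 and 0.295 in IL-4. Of 11 CXC chemokines, 8 were higher in LPS+IFNγ, and Cxcl14 was higher in IL-4 (59.1 and 47.9 CPM against 8.92 and 12.9). Of 13 CC chemokines, 8 were higher in LPS+IFNγ and 2 in IL-4. Ccl5, a T cell chemokine, stood at 9590 and 9290 CPM against 0.837 and 1.47. Ccl2, the monocyte chemokine, stood at 607 and 528 CPM in LPS+IFNγ, 25.3 and 27 in IL-4 and 2.87 and 3.4 in control, and was called above control in both states. Ccl6 was higher in IL-4, where it was not called against control (386 and 481 CPM, 440 and 445 in control, 80.9 and 77.7 in LPS+IFNγ).

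Several sensors were raised by LPS+IFNγ and also lowered by IL-4. Of 29 pattern recognition genes, 24 were higher in LPS+IFNγ, 20 were called above control in LPS+IFNγ, and 7 were called below control in IL-4. Cd14, the LPS co-receptor, stood at 474 and 440 CPM in LPS+IFNγ, 250 and 229 in control and 46.6 and 44.6 in IL-4. Nlrp3, the inflammasome sensor, stood at 166 and 168, 27.2 and 26.2, and 6.47 and 8.4 CPM in the same order. Tlr9 stood at 195 and 190, 48.8 and 40.1, and 8.93 and 8.79 CPM. Of 16 NF-κB feedback genes, 15 were higher in LPS+IFNγ. Nfkbiz, an inducible IκB protein, stood at 112 CPM in both LPS+IFNγ libraries, 23.9 and 26.5 in control and 2.34 and 2.46 in IL-4. The exceptions among sensors were Pycard and Irak1, higher in IL-4, and Irak1 was not called against control there (123 and 132 CPM, 139 and 134 in control, 67.6 and 63.7 in LPS+IFNγ).

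**Figure D3:**
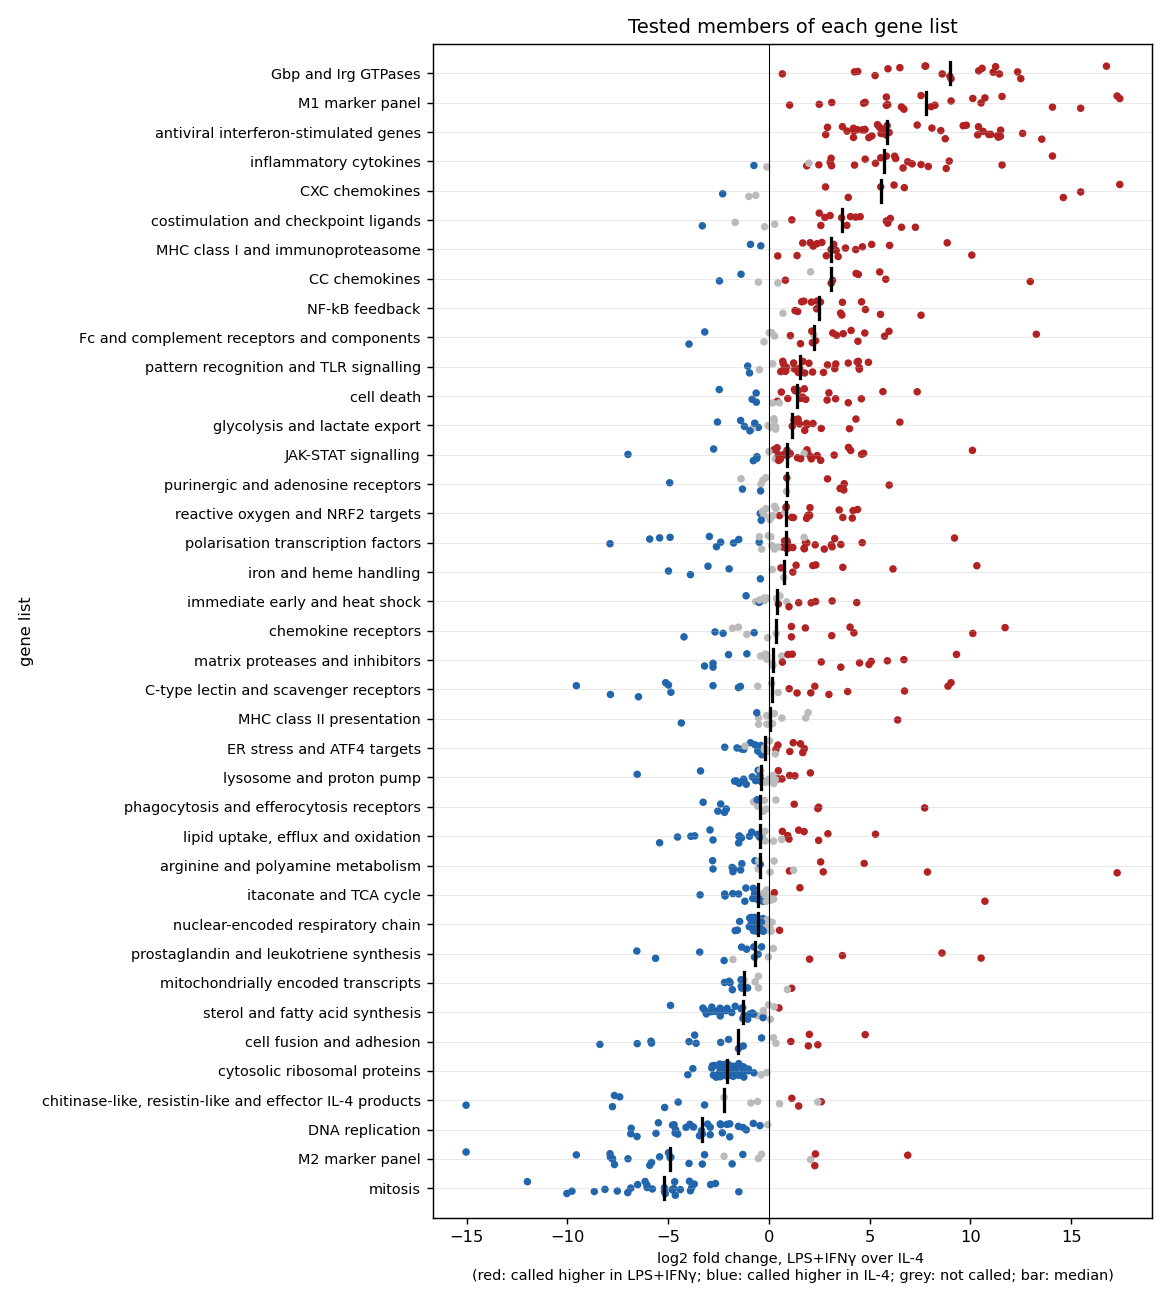
Log2 fold change of LPS+IFNγ over IL-4 in WT (horizontal axis) for the tested members of each gene list, 1 point per gene, with the list median as a black bar. Every point of the Gbp and Irg GTPases and of the antiviral genes is red (called higher in LPS+IFNγ), and every point of the mitosis list is blue (called higher in IL-4).

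C-type lectin and scavenger receptors went both ways. Of 21 tested C-type lectin and scavenger receptors, 9 were higher in LPS+IFNγ and 9 in IL-4, beside 28.1% of all genes tested in either direction, at a median of 0.14 that becomes -0.29 when libraries are scaled by totals alone. Marco, a scavenger receptor for bacteria, stood at 1290 and 936 CPM in LPS+IFNγ against 2.79 and 1.47 in IL-4, and Clec4e (Mincle), a receptor for mycobacterial glycolipid, at 971 and 845 against 0.949 and 2.8. On the other side stood Mrc1, Mgl2 and Clec10a (28.8 and 30.8 CPM in IL-4 against 0.409 and 1.63). The Clec10a difference was -4.86 on the log2 scale, -4.19 without LPS+IFNγ library 1 and -6.16 without LPS+IFNγ library 2. Of 21 Fc and complement genes, 14 were higher in LPS+IFNγ. Fcgr1, the high-affinity IgG receptor, stood at 1420 and 1310 CPM in LPS+IFNγ, 87.7 and 86.6 in control and 22.7 and 28.2 in IL-4. Cfb and C3, of the alternative complement pathway, were higher in LPS+IFNγ: Cfb at 2530 and 2240 CPM against 0.167 and 0.295 in IL-4, and C3 at 4660 and 4110 against 51.2 and 89.3.

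The checkpoint ligands PD-L1 and PD-L2 went apart. Cd274 (PD-L1) stood at 4510 and 4120 CPM in LPS+IFNγ, 65.3 and 79.3 in IL-4 and 33.2 and 33.3 in control. Pdcd1lg2 (PD-L2) stood at 11.8 and 15.1 CPM in IL-4, 1.02 and 1.69 in LPS+IFNγ and 0 and 0.148 in control. Both genes were called above control in both states. Of 19 costimulation and checkpoint genes, 15 were higher in LPS+IFNγ and 1, Pdcd1lg2, in IL-4.

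Genes of macrophage fusion and multinucleated cells were more often higher in IL-4 than in LPS+IFNγ. Of 19 tested fusion and adhesion genes, 12 were higher in IL-4 and 5 in LPS+IFNγ, with a median of -1.51. Beside 28.1% of all genes tested in either direction, the share toward LPS+IFNγ was near that of all genes. Against control, IL-4 raised 5 and lowered 2 of the 19 (median 0.06). LPS+IFNγ raised 3 and lowered 9 (median -0.59), beside 27.4% and 27% of all genes tested. Ocstamp, a fusion protein of osteoclasts and giant cells, stood at 83.7 and 79.8 CPM in IL-4, 0.292 and 0.197 in control and 0.136 and 0.339 in LPS+IFNγ. Atp6v0d2, a proton pump subunit needed for fusion, stood at 925 and 1050 CPM in IL-4, 289 and 309 in control and 9.26 and 12 in LPS+IFNγ. Cdh1, the adhesion protein E-cadherin, stood at 4.35 and 4.12 CPM in IL-4. It had 2 counts in LPS+IFNγ, a ratio of 62.3 with a 95% counting interval of 17 to 519. Markers of osteoclasts summed to 1280 and 1420 CPM in IL-4, 433 and 456 in control and 179 and 191 in LPS+IFNγ, and 5 of 6 tested were higher in IL-4. The osteoclast list shares genes with the fusion list, and whether osteoclast-like cells bear on the fusion result was not tested. The integrins Itgal (534 and 468 CPM against 18.9 and 17.6) and Itga5 (812 and 689 against 141 and 139) were higher in LPS+IFNγ.

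Carbon metabolism was split between cytosol and mitochondrion. Of 27 glycolysis and lactate export genes, 14 were higher in LPS+IFNγ and 6 in IL-4 (28.1% of all genes tested in either direction), with a median of 1.16. Pfkfb3, which makes the activator of phosphofructokinase, stood at 2910 and 2600 CPM in LPS+IFNγ, 31.4 and 29.4 in IL-4 and 31.4 and 30.1 in control. Slc2a1, the glucose transporter, stood at 421 and 342 CPM in LPS+IFNγ, 83 and 84.6 in IL-4 and 34.5 and 35.4 in control, and was called above control in both states. IL-4 raised 8 of the 27 over control. Of 25 itaconate and TCA cycle genes, 15 were higher in IL-4 and 3 in LPS+IFNγ (28.1% of all genes tested in either direction), with a median of -0.54. Against control, IL-4 raised 10 of the 25 and lowered 0 (median 0.37), beside 4.92% and 4.12% of all genes tested. LPS+IFNγ raised 5 and lowered 10 (median -0.11), beside 27.4% and 27% of all genes tested. Idh2, the mitochondrial isocitrate dehydrogenase, stood at 83.5 and 82.1 CPM in IL-4, 67.7 and 65.5 in control and 8.72 and 6.84 in LPS+IFNγ. Idh3a stood at 66.7 and 61.2 CPM in IL-4, 36.9 and 40.8 in control and 12.3 and 16.1 in LPS+IFNγ.

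Respiratory chain genes were lower in LPS+IFNγ than in IL-4, by small steps. Of 52 tested nuclear-encoded genes, 35 were higher in IL-4 and 1 in LPS+IFNγ, with a median of -0.55, and 2 of them were past a fold of 2. Those higher in IL-4 numbered 22 without LPS+IFNγ library 1 and 21 without IL-4 library 1. IL-4 raised 14 of the 52 over control, beside 4.92% of all genes tested. LPS+IFNγ lowered 9 and raised 2, with a median of -0.12 against control. The share lowered was below the 27% of all genes tested. Uqcrc1, of complex III, stood at 184 and 183 CPM in IL-4, 129 and 127 in control and 93.6 and 93.7 in LPS+IFNγ. Of 15 mitochondrially encoded transcripts, 8 were higher in IL-4 and 1 in LPS+IFNγ, with a median of -1.23. Without LPS+IFNγ library 2, 3 of the 15 were higher in IL-4. mt-Nd1, of complex I, stood at 1450 and 1610 CPM in IL-4, 1250 and 1220 in control and 379 and 286 in LPS+IFNγ. Between IL-4 and control, edgeR and DESeq2 each called 0 of the 15, and 0 had an unadjusted edgeR p below 0.05.

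Sterol and fatty acid synthesis genes were mostly lower in LPS+IFNγ, and other lipid genes went both ways. Of 31 tested sterol and fatty acid synthesis genes, 24 were higher in IL-4 and 1 in LPS+IFNγ, with a median of -1.3. In either direction 28.1% of all genes tested were called. LPS+IFNγ lowered 21 of the 31 against control, beside 27% of all genes tested, whereas IL-4 raised 1. Fasn, fatty acid synthase, stood at 101 CPM in both IL-4 libraries, 88.5 and 81.7 in control and 10.5 and 10.4 in LPS+IFNγ. Sqle, squalene epoxidase, stood at 43.5 and 42.6, 34.1 and 35.8, and 4.97 and 4.54 CPM in the same order. Of 27 tested lipid uptake, efflux and oxidation genes, 14 were higher in IL-4 and 8 in LPS+IFNγ, with a median of -0.46. The share toward LPS+IFNγ was near that of all genes. Lpl, lipoprotein lipase, stood at 9590 and 9200 CPM in IL-4, 8380 and 8130 in control and 663 and 618 in LPS+IFNγ. Abca1, the cholesterol exporter, was higher in LPS+IFNγ (606 and 549 CPM against 90.9 and 117). Of 17 tested prostaglandin and leukotriene synthesis genes, 10 were higher in IL-4 and 4 in LPS+IFNγ, with a median of -0.71. Here too the share toward LPS+IFNγ was near that of all genes. The inducible pair Ptgs2 (690 and 636 CPM against 0.167 and 0.687) and Ptges (411 and 413 against 0.614 and 1.47) was higher in LPS+IFNγ. The constitutive Ptgs1 was higher in IL-4 (266 and 260 CPM against 4.84 and 5.83, with 177 and 156 in control).

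Cell cycle genes were lower in LPS+IFNγ. The mitosis list summed to 65.3 and 71.7 CPM there against 1600 and 1690 in IL-4, and the DNA replication list to 424 and 436 CPM against 2490 and 2350. All 28 mitosis genes were higher in IL-4, with a median of -5.18, and 30 of 31 DNA replication genes were, with a median of -3.3. Against control, LPS+IFNγ lowered all 28 mitosis and 30 of the 31 replication genes, and IL-4 lowered 2 and 4 by edgeR. In IL-4, DESeq2 called 13 and 6 of them below control, and the unadjusted edgeR p was below 0.05 for 19 and 9. Control lay above both states in all 28 mitosis and 22 of the replication genes. Ccna2, cyclin A2, stood at 140 and 141 CPM in control, 79.2 and 76.8 in IL-4 and 0 and 0.136 in LPS+IFNγ. Rrm2, a ribonucleotide reductase subunit, stood at 149 and 127, 75.9 and 72.2, and 0.341 and 0.949 CPM in the same order. Uhrf1, which maintains DNA methylation, stood at 131 and 114, 95.2 and 87.2, and 1.98 and 1.76 CPM. In the mitosis list the IL-4 median against control was -0.86.

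Cytosolic ribosomal protein genes were lower in LPS+IFNγ almost without exception. Of 64 tested, 62 were higher in IL-4 and 0 in LPS+IFNγ, with a median of -2.09, and 56 were past a fold of 2. LPS+IFNγ lowered 62 of them against control (median -1.88), and in IL-4 edgeR called 0 against control (median 0.16), while DESeq2 called 1 above control and 1 had an unadjusted edgeR p below 0.05. Rpl3, of the large subunit, stood at 719 and 692 CPM in IL-4, 665 and 637 in control and 50.6 and 52.5 in LPS+IFNγ. Rps7, of the small subunit, stood at 392 and 372 CPM in IL-4, 360 and 344 in control and 54.7 and 58.6 in LPS+IFNγ. Many ribosomal protein genes have processed copies elsewhere in the genome, so their estimated counts depend on how reads were shared out.

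**Figure D4:**
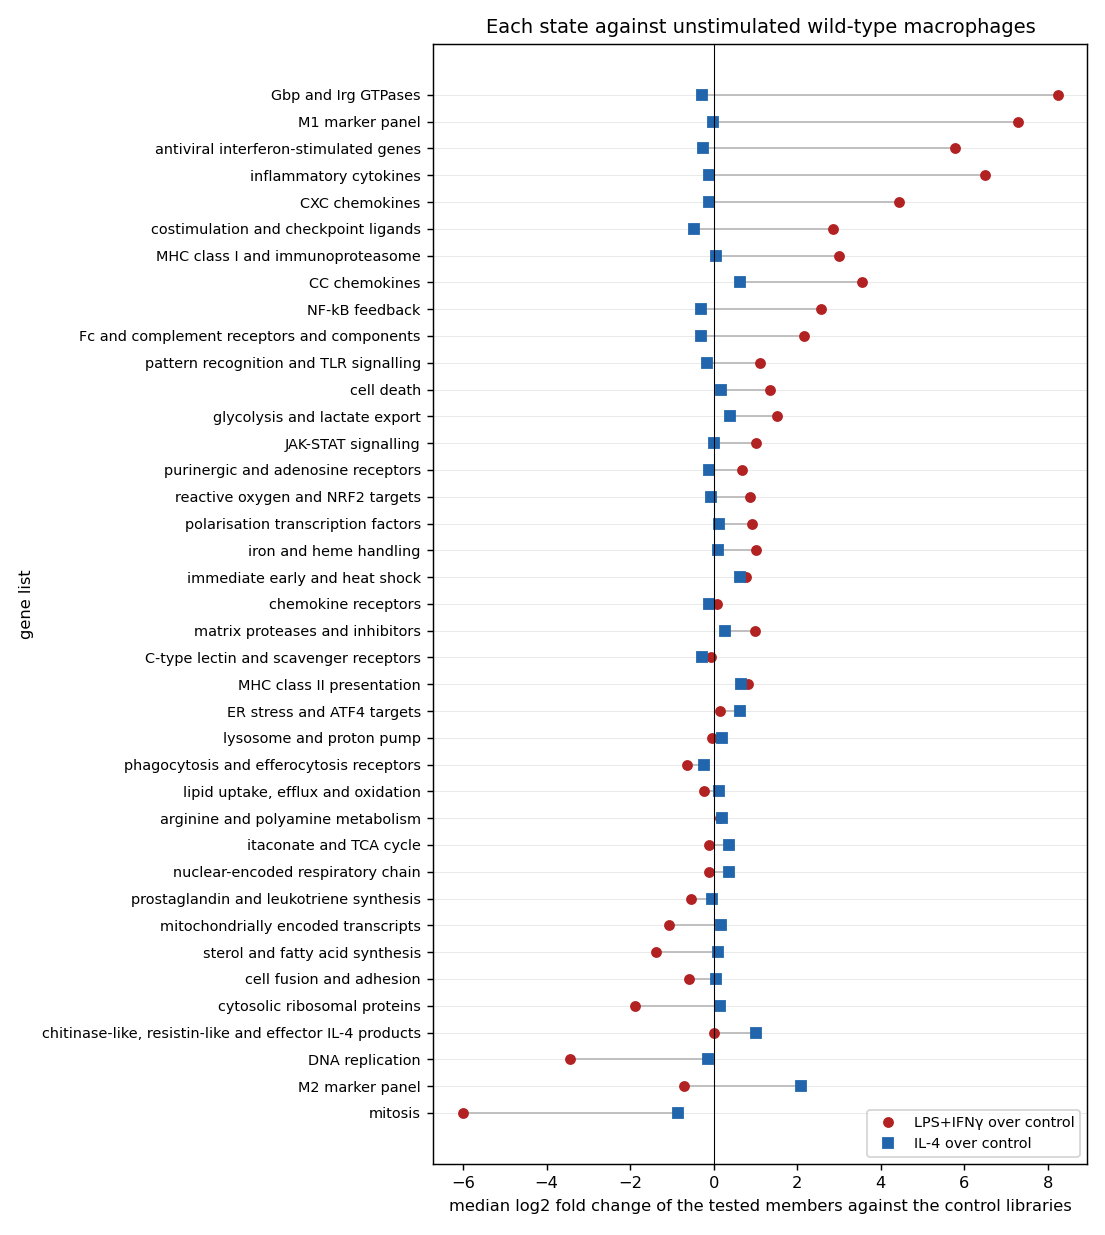
Median log2 fold change against WT control (horizontal axis) for each gene list, LPS+IFNγ as red circles and IL-4 as blue squares, joined by a grey line. Red points reach from -6 (mitosis) to 8.24 (Gbp and Irg GTPases), while the blue points reach from -0.86 (mitosis) to 2.09 (M2 marker panel). Both sets use the same 2 control libraries.

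The same direct comparison in KO macrophages used 4 other libraries. There 7421 genes were called (54.9% of all tested). Across the 13525 genes, which share the scaling and the model, the log2 fold changes of the genotypes had a correlation of 0.905, given as a description. Of 3046 genes past a fold of 2 in WT, 3045 had the same sign in KO and 2963 passed the test there with that sign. The genotype by state interaction called 0 genes (0%) by edgeR. At an unadjusted p below 0.05 there were 631 genes, where 676 would be expected if no gene differed. DESeq2 called 4, edgeR without the low-count filter 3, and edgeR without KO LPS+IFNγ library 1 called 78. Mrc1 differed by -7.47 ± 0.44 in KO and -7.86 ± 0.44 in WT, and Arg1 by -1.97 ± 0.53 and -1.82 ± 0.53 (log2 scale, SE).

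Among the 5 genes with the smallest interaction p were Met, the hepatocyte growth factor receptor, and the predicted gene Gm20186. Both lie on chromosome 6, Met at 17463800 to 17573980 and Gm20186 at 18845910 to 18848207, as does Ptprz1 at 22875502 to 23052916. Met stood at 179 and 155 CPM in WT LPS+IFNγ and 22 and 18.3 in WT IL-4, a difference of 3.05 ± 0.15 in WT and 4.17 ± 0.16 in KO (interaction adjusted p = 0.881). For Gm20186 the values were 3.01 ± 0.22 and 5.25 ± 0.26 (interaction adjusted p = 0.673). The other 3 were Zfp973 and AL732309.1, both on chromosome 2, and Tmem268, on chromosome 4, each also at an adjusted p of 0.881. None of the 5 was called, and whether position bears on these differences was not tested. Ptprz1 itself had 0 counts in 5 of the 6 WT libraries and 7 counts, or 0.344 CPM, in IL-4 library 2, so it was not tested and the RNA does not check the genotype.

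**Figure D5:**
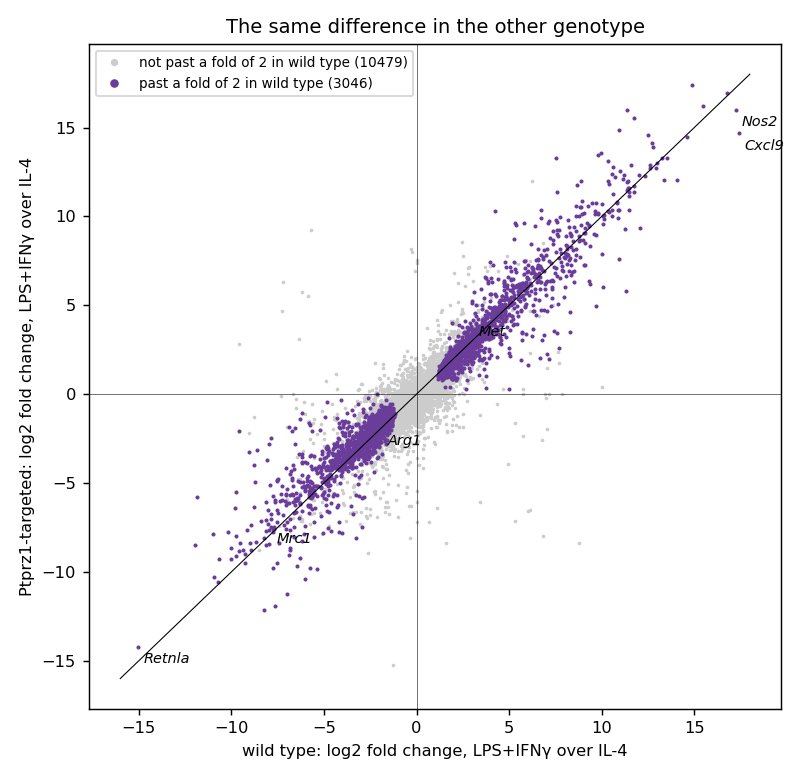
Log2 fold change of LPS+IFNγ over IL-4 in WT (horizontal axis) and in KO (vertical axis), 1 point per gene tested, with the line of equal change. Purple points are the 3046 genes past a fold of 2 in WT, of which 3045 have the same sign in KO.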

How the data were processed

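RNA was sequenced from 12 libraries in 6 groups of 2, with groups and library numbers taken from the sample titles. RNA came from the innuPREP RNA Mini Kit 2.0 and libraries from the NEBNext Ultra II Directional kit, per the labels' protocols. The authors deposited 1 table of estimated counts, whole numbers for 55891 Ensembl genes. Salmon 1.10.2, R 4.4.1, DESeq2 1.45.3, FastQC 0.11.9 and build GRCm39 are named in the submitters' processing notes, with no role given. The annotation was not given in the sources used here, nor was the strand setting, so overlapping and antisense genes are uncertain. The counts were used as deposited. Symbols and positions for 51425 identifiers (92%) come from GENCODE M21 (GRCm38) and were not converted. Promoter windows come from RefSeq, GRCm38.p6.

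In R 4.3.3, edgeR 4.0.16 (filterByExpr, TMM, quasi-likelihood F test) was fitted to all 12 libraries with 1 coefficient per group, leaving 6 residual degrees of freedom. The contrast was LPS+IFNγ minus IL-4 in WT, adjusted by Benjamini-Hochberg over 13525 genes at 0.05, and a second test (glmTreat) asked for more than a fold of 2. All tests were two-sided. SE were derived from the F statistics. A gene with no counts in a group was set at 3 counts per library for a lower bound, and intervals for 1 to 3 counts are exact binomial at 95%, covering counting error only. The code was tested on simulated data. Named genes are the 12 with the widest difference either way (both tests passed, at least 10 CPM in the higher state), up to 5 called members of a list in its prevailing direction and up to 3 in the other, a fixed panel, 8 genes that moved from control in opposite and 8 in shared directions, and the 5 smallest interaction p. The comparison, the genes and the lists were chosen with earlier results of these data known. Alternatives were DESeq2 1.42.0 and its size factors, library totals, no filter, fewer libraries, the replicate block and leaving out each library.

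Between the libraries of a group the chi-square per gene was 7.81 (LPS+IFNγ), 15.6 (IL-4) and 7.1 (control), above sampling noise, so all were kept as separate samples. A few genes of the lists and of the naming rule are counted in the totals but not reported here.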

Additional observations from a re-analysis of the deposited data

How the results depend on the processing

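The direct count of 7600 genes stayed within a factor of 1.5 under every alternative run: 7609 with DESeq2 size factors, 8136 with library totals, 7494 without the filter, 7468 with DESeq2, 8365 and 8688 with only the 4 or the 6 WT libraries, and 6108 to 6337 when 1 of the 4 libraries was left out. With the library number as a replicate block it was 7876. A similar total does not mean the same genes. With library totals, 6094 of the 7600 were called again with the same sign. In that setting 246 of the 7600 changed sign, of which 0 were called. The labels do not say that a number marks a shared animal or batch, and with 2 numbers the data cannot settle it. The difference of library 2 minus library 1 had a correlation across genes of 0.21 between LPS+IFNγ and IL-4, 0.33 between LPS+IFNγ and control and 0.34 between IL-4 and control. IL-4 against control called 1603 genes with the block, 1840 with DESeq2, 3475 with the 4 libraries concerned and 3653 with the 6 WT libraries, and between 175 and 281 when 1 library was left out. The interaction called 3 without the filter, 4 with DESeq2, and between 0 and 78 with 1 library left out. Among the named genes, small differences changed sign: Nfil3 (-0.18), Col18a1 (-0.27) and Sdhd (-0.17) with library totals, and Plk3 (0) with DESeq2 size factors. Of these, Sdhd was called in the main fit. With 1 library left out, the log2 fold change ran from -0.15 to 0.11 for Plk3, -0.22 to 0.66 for Col18a1, -1.01 to 0.22 for Ccl22, -0.87 to 0.11 for AL732309.1 and -0.25 to 0.06 for Pram1. The list median of chemokine receptors became -0.06 with library totals and -0.08 with the 4 libraries, and that of C-type lectins -0.29 with library totals. The cause was not tested. Of the named genes' settings, 3137 kept sign and call, 85 lost the call, 11 gained it and 9 changed sign.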

Other observations

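Iron and heme genes held members at both ends. Of 15 tested, 8 were higher in LPS+IFNγ and 5 in IL-4. Beside 28.1% of all genes tested in either direction, the share toward IL-4 was near that of all genes. Fth1, the ferritin heavy chain that stores iron, stood at 39000 and 39200 CPM in LPS+IFNγ, 8280 and 7230 in IL-4 and 7810 and 8080 in control. Hmox1, which breaks down heme, stood at 6310 and 6240 CPM in LPS+IFNγ against 499 and 487 in IL-4. Tfrc, the transferrin receptor that takes up iron, stood at 514 and 687 CPM in IL-4, 142 and 157 in control and 39.2 and 41.7 in LPS+IFNγ. Lcn2, the siderophore-binding lipocalin, stood at 1400 and 1120 CPM in LPS+IFNγ against 0.0558 and 1.82 in IL-4. Of 26 reactive oxygen and NRF2 genes, 15 were higher in LPS+IFNγ and 2 in IL-4. Slc7a11, the cystine transporter, stood at 545 and 528 CPM in LPS+IFNγ, 23.3 and 27.3 in IL-4 and 14.3 and 15.4 in control.

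Nucleotide receptors and efferocytosis receptors were likewise divided. Adora2a, an adenosine receptor, stood at 71.5 and 64.3 CPM in LPS+IFNγ against 1.34 and 0.835 in IL-4, and P2ry1, another nucleotide receptor, at 1.43 and 1.02 against 39.4 and 35.3. P2ry12 and P2ry13, receptors for ADP, were called below control in IL-4 (P2ry12 at 9.4 and 7.79 CPM in LPS+IFNγ, 5.2 and 5.52 in control, 0.391 and 0.884 in IL-4). Mertk, a receptor for dying cells, stood at 321 and 351 CPM in LPS+IFNγ, 119 and 117 in control and 53.6 and 71.5 in IL-4, whereas its ligand genes Gas6 (7.97 and 13 CPM in LPS+IFNγ, 57 and 64.1 in IL-4, 237 and 277 in control) and Pros1 (16.6 and 22.6, 83.2 and 85.5, 84.5 and 87 CPM) were lower in LPS+IFNγ. Trem2, a lipid-sensing receptor, stood at 55.8 and 56.5 CPM in LPS+IFNγ, 571 and 502 in IL-4 and 598 and 565 in control. The direct differences of P2ry12 (3.72) and P2ry13 (3.74) became 4.43 and 4.77 without IL-4 library 2. Of 24 endoplasmic reticulum stress genes, 10 were higher in IL-4 and 7 in LPS+IFNγ, beside 28.1% of all genes tested in either direction, so the share toward LPS+IFNγ was near that of all genes. Of these, the chaperone Pdia4 stood at 183 and 204 CPM in IL-4 against 76.6 and 76.7 in LPS+IFNγ and 74.8 and 79.8 in control.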
